A study of Homo sapiens with 4 samples.

Results

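Transcripts of 10 genes of the NF-kB system were followed in SUM149 cells before and after HDAC6 inhibition: NFKB1, NFKB2, RELA and RELB, which encode subunits of the transcription factor, NFKBIA, NFKBIZ and TNFAIP3, which encode its regulators, and BIRC3, ICAM1 and TNF, which are classical target genes. Members were all probes carrying 1 of these 10 symbols in the deposited normalized table, which gave 10 genes of the 34755 on the array, through 11 probes printed as 29 spots. SUM149 is 1 established cell line of inflammatory breast cancer, classed as basal and as negative for the oestrogen and progesterone receptors and ErbB2. Cells were left untreated, shown as 0 h, or received 2.5 µM ACY1215 (Ricolinostat), an inhibitor of the deacetylase HDAC6, for 3, 6 or 12 h. All cells had been allowed to attach to 6-well plates for 24 h beforehand, and no vehicle-treated array was among those analysed. Each condition was 1 two-colour array, all 4 on 1 slide scanned at 1 time, with the sample in Cy5 and a common reference in Cy3.

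In resting cells, NF-kB dimers are held in the cytoplasm by IkB proteins. Signals from TNF, interleukin 1 or Toll-like receptors activate the IKK complex, which marks IkB for destruction, and the freed dimers enter the nucleus and switch on genes that include their own inhibitors. NFKBIA, TNFAIP3 and BIRC3 are therefore read both as targets and as parts of the feedback, and in epithelial tumours the pathway is known for inflammatory cytokine output and for survival.

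To show where the factor could bind, the 250 bases upstream of the transcription start were read from a table of RefSeq promoters (GRCh38.p14), in which 9 of the 10 genes, all but RELB, were matched, with 14 start sites among them. The kB consensus, a named motif of 10 bases searched on both strands, was found in 8 of the 14 windows, belonging to 6 genes (NFKB1, NFKB2, NFKBIA, NFKBIZ, TNFAIP3 and BIRC3), and in 5.21% of all 35116 promoter windows of that length. The windows of 1 gene did not overlap, but they belong to the same gene and are not independent. No match to the consensus was found in the windows of RELA, ICAM1 or TNF. A looser pattern of 10 bases, starting with GGG and ending with CC, matched at 1 position for TNF and at 2 for ICAM1. In the windows of RELA it matched at 0 and 1 positions. It was also found in 54.4% of all windows. Sites that fit neither pattern, or that lie outside these windows, would be missed. Windows are shown for 3 genes whose transcripts reached a 2-fold change at some time, and for NFKBIA, which was read from repeated spots, each 5′ to 3′ along the gene and with matches to the kB consensus in capitals. For NFKBIZ the more upstream of its 2 start sites is shown.
BIRC3 chr11:102317234-102317483, plus strand: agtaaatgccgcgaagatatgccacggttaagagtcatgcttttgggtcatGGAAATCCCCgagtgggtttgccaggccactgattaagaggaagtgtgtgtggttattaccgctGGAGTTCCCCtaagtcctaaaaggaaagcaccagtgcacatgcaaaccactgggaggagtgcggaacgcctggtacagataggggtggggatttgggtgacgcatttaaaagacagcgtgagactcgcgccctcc
NFKBIZ chr3:101827740-101827989, plus strand: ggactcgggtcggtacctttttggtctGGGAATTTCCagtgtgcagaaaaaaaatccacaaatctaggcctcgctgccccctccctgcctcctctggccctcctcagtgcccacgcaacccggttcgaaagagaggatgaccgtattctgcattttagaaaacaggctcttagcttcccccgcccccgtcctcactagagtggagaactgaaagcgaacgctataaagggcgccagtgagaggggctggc
NFKBIA chr14:35404750-35404999, minus strand: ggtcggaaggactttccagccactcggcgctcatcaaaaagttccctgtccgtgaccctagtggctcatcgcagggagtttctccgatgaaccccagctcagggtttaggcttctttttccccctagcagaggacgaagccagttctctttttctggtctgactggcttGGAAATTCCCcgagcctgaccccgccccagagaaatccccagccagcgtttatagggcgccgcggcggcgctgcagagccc
TNF chr6:31575315-31575564, plus strand: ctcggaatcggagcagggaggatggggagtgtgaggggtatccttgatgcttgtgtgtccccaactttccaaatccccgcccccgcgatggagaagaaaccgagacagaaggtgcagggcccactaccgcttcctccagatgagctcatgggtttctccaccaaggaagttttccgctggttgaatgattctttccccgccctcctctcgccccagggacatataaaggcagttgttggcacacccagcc
The 2 matches of BIRC3 read GGGGATTTCC and GGGGAACTCC on the opposite strand, at bases -199 to -190 and -135 to -126 from the start. Those of NFKBIZ, on the strand shown, and of NFKBIA, on the opposite strand, both read GGGAATTTCC. TNF has none in this window.

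The arrays were alike in brightness, with a median Cy5 signal between 36 and 40 over a local background of 24, and no spot was saturated. All 11 epithelial and basal breast markers were well above background in Cy5 on every array. For 2 of them, KRT6A and KRT14, the probe read was flagged as an outlier on the untreated array, so no untreated value was used. PGR was not, while ESR1 and ERBB2 were, at 199 and 253 in untreated cells. Of 8 leukocyte markers 7 were above background, among them CD4 at 12572 and CD14 at 770, while PTPRC, present on all leukocytes, was at 181 and MS4A1 at 27.5, near background. A second probe of CD4 was not well above background on all 4 arrays, nor were some of the 5 PTPRC probes. None of the 8 leukocyte markers reached a 2-fold change at any time. Of 5 endothelial markers 4 were above background in untreated cells, as were 4 of 5 fibroblast markers, with median signals of 41.5 and 136 over each list. The Cy3 reference is labelled as a pool of the untreated and treated SUM149 cells, yet 840 genes were at least 2-fold above it and 1466 at least 2-fold below it on all 4 arrays, together 11.6% of the 19891 genes above background throughout, whereas a pool of these samples should lie between them. What the reference held was not tested, and because it was shared by the arrays, changes between time points are reported here rather than distances from it. Areas of damaged spots covered 3.24% of the untreated array and 4.52% of the 3 h array, against 0.248% at 6 h and 0% at 12 h.

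A change is the log2 ratio of Cy5 to Cy3 after treatment minus that of untreated cells, so that 1 is a 2-fold rise. A gene counted as measured when Cy5 and Cy3 both stood well above background on the arrays compared, and as changed when it also reached 2-fold. With 1 array per condition there was no replicate and no test. As a technical error, the SD of the change between repeated spots of 1 probe was taken over 300 probes. It was 0.153 at 3 h, 0.120 at 6 h and 0.116 at 12 h, and covers differences between spots of the same array. Errors that all spots of an array share, such as those of labelling, hybridisation or normalization, lie outside it, as do differences between cultures. All 3 comparisons share the untreated array, so an error there would enter each of them. In bulk RNA, fewer cells expressing a gene and less RNA per cell cannot be told apart.

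Across the 10 genes, BIRC3, TNF and NFKBIZ rose while the subunits moved little. At 3 h, 0 of the 8 measured members reached 2-fold, against 2.08% of the 20774 genes measured (1.71% higher, 0.375% lower). At 6 h NFKBIZ, BIRC3 and TNF did, 3 of 9, all upward, against 3.76% of 20344 genes in either direction, 2.81% upward and 0.944% downward. At 12 h BIRC3 and TNF did, 2 of 9, against 3.46% of 20485 genes in either direction, 2.33% upward and 1.12% downward. By the smaller measure of passing the technical SD, 1 member was higher and 4 lower at 3 h, where 28.5% and 21.9% of genes were, 4 were higher and 4 lower at 6 h (35.2% and 29% of genes), and 6 were higher and 2 lower at 12 h (34.9% and 29.9%). The median change of the measured members was -0.15 at 3 h, 0.11 at 6 h and 0.33 at 12 h, where the median of all genes was 0.0076, 0.016 and 0.014. The last 2 medians depended on the scaling: centring each array on its median without loess gave -0.050 and -0.092 for the members, and put the median of all genes at -0.084 and -0.16.

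**Figure D1:**
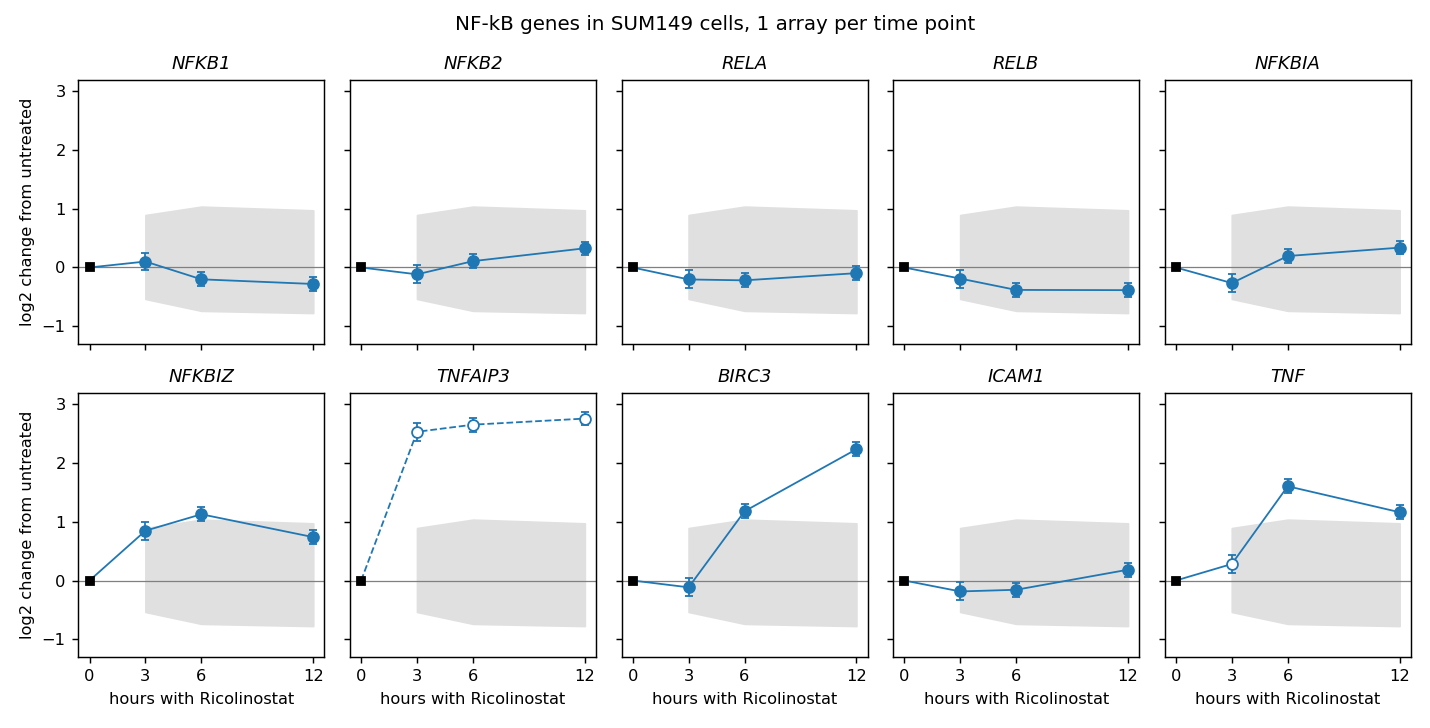
Change of log2 Cy5 over Cy3 from untreated cells (vertical axis) against hours with Ricolinostat (horizontal axis) for each of the 10 genes, with bars for the technical SD between repeated spots and a grey band for the central 95% of all genes at 3, 6 and 12 h. The black square is the untreated array, and open circles mark values for which a spot was not well above background: BIRC3 reached 2.24 at 12 h and TNF 1.61 at 6 h, while the 4 subunits stayed between -0.39 and 0.33.

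Among the subunits, the log2 ratio of RELA, the main transactivating subunit p65, was 0.55 in untreated cells, 0.34 at 3 h, 0.33 at 6 h and 0.45 at 12 h. The changes of -0.20, -0.22 and -0.097 were small, and the last was within the technical SD. A second RELA probe gave -0.072, -0.27 and -0.11, so both probes were lower at every time. RELB, the partner of p52 in the non-canonical pathway, had log2 ratios of 0.74, 0.55, 0.35 and 0.35 in the same order. Its changes of -0.19, -0.38 and -0.39 made it the subunit that fell furthest at 6 and 12 h, and it was lower under each of the 9 other ways of processing that gave it a value.

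NFKB1, which encodes p105 and its product p50, had log2 ratios of 0.92, 1.02, 0.71 and 0.63. It was thus 0.10 above untreated cells at 3 h, within the technical SD, and then 0.20 and 0.28 below. NFKB2, which encodes p100 and p52, went the other way, with log2 ratios of 0.57, 0.45, 0.68 and 0.90 and changes of -0.12, 0.11 and 0.33, of which only that at 12 h passed the technical SD. None of the 4 subunits reached 2-fold at any time under any of the ways of processing tried, and the largest change over all of them was -0.75 for RELB at 12 h after median centring.

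NFKBIZ encodes IkBζ, a nuclear co-factor that is itself induced by NF-kB and helps to switch on a second set of its targets. Its Cy5 signal was 155 in untreated cells, 336.5 at 3 h, 295 at 6 h and 206 at 12 h. The log2 ratios were -0.23, 0.62, 0.90 and 0.51, so all 3 treated arrays lay above the untreated one. NFKBIZ was the earliest of the measured members to rise, by 0.85 at 3 h (1.80-fold, higher than 97% of genes) and 1.13 at 6 h (2.19-fold), and stood at 0.74 at 12 h, lower by 0.39 than at 6 h. It is carried by 1 spot, and the change at 6 h ranged from 0.84 with Cy5 alone to 1.40 with an offset of 1.

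NFKBIA encodes IkBα, the inhibitor that NF-kB resynthesises to end its own activity. Its probe was printed 10 times on each array, and the mean log2 ratio over unflagged spots was 0.71 ± 0.027 in untreated cells (SD, 8 spots), 0.45 ± 0.032 at 3 h (8 spots), 0.91 ± 0.027 at 6 h (7 spots) and 1.05 ± 0.058 at 12 h (8 spots). The spots of the 4 arrays did not overlap, with 3 h lowest, then untreated cells, 6 h and 12 h. The change of these means was -0.27 at 3 h, 0.20 at 6 h and 0.34 at 12 h. Paired spot by spot it was -0.27 ± 0.044 (SD, 8 of 8 spots lower), 0.19 ± 0.045 (7 of 7 higher) and 0.32 ± 0.035 (7 of 7 higher). The spots of an array share its RNA and its normalization, so they are not replicates of the condition. Mean Cy5 signal itself was 11527, 10198, 9973 and 9133. The fall at 3 h was seen in all 10 settings that gave a value. The values at 6 h and 12 h were above 0 in 9 of the 10. The exception was median centring with -0.050 and -0.092, where the median of all genes was -0.084 and -0.16. With Cy5 alone the changes at 6 h and 12 h were only 0.031 and 0.018, within the technical SD. Cy3 alone, the shared reference, changed by -0.092 and -0.22 at these times.

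TNFAIP3 encodes A20, the ubiquitin-editing enzyme that shuts off signalling to IKK, and its untreated value could not be used. The Cy5 signal was 20 over a background of 20 in untreated cells, against 615, 617.5 and 671 at 3, 6 and 12 h. Cy3, the same reference on every array, was also lower there, at 236.5 against 387, 441.5 and 492. On the untreated array the spot lay within an area of damage, where 22 of 43 neighbouring spots that were above background in Cy5 on the treated arrays were not (51.2%), against 1.47% of such spots over the whole array. No fold or bound against untreated cells is therefore given, and TNFAIP3 was left out of every count. Its untreated log2 ratio, on which its open circles in the plot of the 10 genes rest, was -2.34. Among the treated arrays, where the spot was intact, its log2 ratio was 0.19 at 3 h, 0.31 at 6 h and 0.42 at 12 h, a difference of 0.23 between the first and the last.

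**Figure D2:**
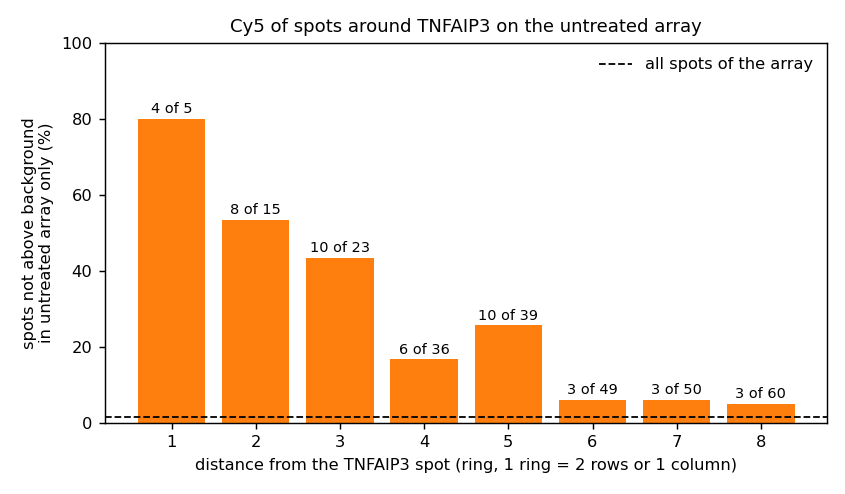
Share of spots (vertical axis, percent) whose Cy5 was above background on the 3 treated arrays but not on the untreated array, by distance from the TNFAIP3 spot in rings (horizontal axis, 1 ring is 2 rows or 1 column of the array), with the number of spots over each bar and the share over all spots as a dashed line. The share fell from 80% in the nearest ring to 5% in the eighth, and was 1.47% over the array.

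BIRC3 showed the largest measured change of the group. It encodes cIAP2, a ubiquitin ligase that protects cells from death downstream of the TNF receptor. Its Cy5 signal was 2535.5 in untreated cells, 2132.5 at 3 h, 4121 at 6 h and 8629 at 12 h, with Cy3 between 510.5 and 636. The log2 ratios were 1.46, 1.34, 2.64 and 3.70, so untreated and 3 h were close and 6 h and 12 h stood above both. The changes were -0.12 at 3 h, within the technical SD, 1.18 at 6 h (2.27-fold) and 2.24 at 12 h (4.71-fold), the last at rank 13 from the top among 20485 genes. From 6 to 12 h BIRC3 gained a further 1.06, and it was the 1 member to reach 2-fold between those arrays, where 0.13% of 20714 genes did (0.0676% higher, 0.0628% lower). Over the alternatives the change at 12 h was between 1.94 and 2.29, and that at 6 h between 0.87 and 1.24.

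TNF encodes the cytokine that both activates NF-kB and is made under its control. Its Cy5 signal was 410, 467, 1292 and 939 at 0, 3, 6 and 12 h, so that 6 and 12 h were above the other arrays. The log2 ratios were 2.55, 2.83, 4.15 and 3.71. TNF thus peaked at 6 h, with a change of 1.61 (3.04-fold), and was at 1.16 (2.24-fold) at 12 h, lower by 0.44 than at 6 h. The Cy3 signal behind these ratios was close to background, at 37.5, 24, 38 and 43.5 over 24 to 28, and at 3 h it was not well above it, with the spot in a damaged area, so the 0.28 at 3 h was not counted. Cy5 alone, which does not use Cy3, gave 1.68 at 6 h and 1.36 at 12 h. The rise at 12 h fell short of 2-fold with an offset of 1 (0.96) and with the scanner software's own ratio (0.84).

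ICAM1 encodes an adhesion molecule for leukocytes. The mean log2 ratio over 9 unflagged spots was -0.53 ± 0.12 (SD) in untreated cells, -0.72 ± 0.055 at 3 h, -0.69 ± 0.078 at 6 h and -0.35 ± 0.068 at 12 h. The spots of untreated cells overlapped those of every treated array, while all spots at 12 h lay above those at 3 and 6 h. The change was -0.19 at 3 h with 9 of 9 spots lower, -0.16 at 6 h with 8 of 9 lower and 0.18 at 12 h with 8 of 9 higher, and median centring turned the last to -0.10. With Cy5 alone the change at 12 h was 0.013, within the technical SD. ICAM1 did not reach 2-fold at any time.

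**Figure D3:**
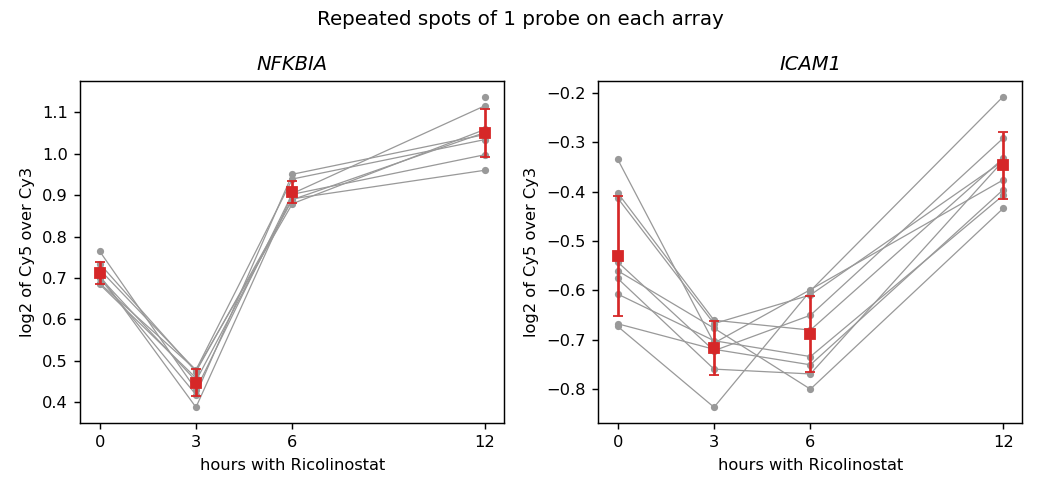
Log2 ratio of Cy5 over Cy3 (vertical axis) on each array (horizontal axis, hours with Ricolinostat) for the repeated spots of the NFKBIA and ICAM1 probes, each grey line 1 printed position and red squares the mean with SD over unflagged spots. NFKBIA was lowest at 3 h and highest at 12 h, while the ICAM1 spots of untreated cells overlapped those of every treated array.

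**Figure D4:**
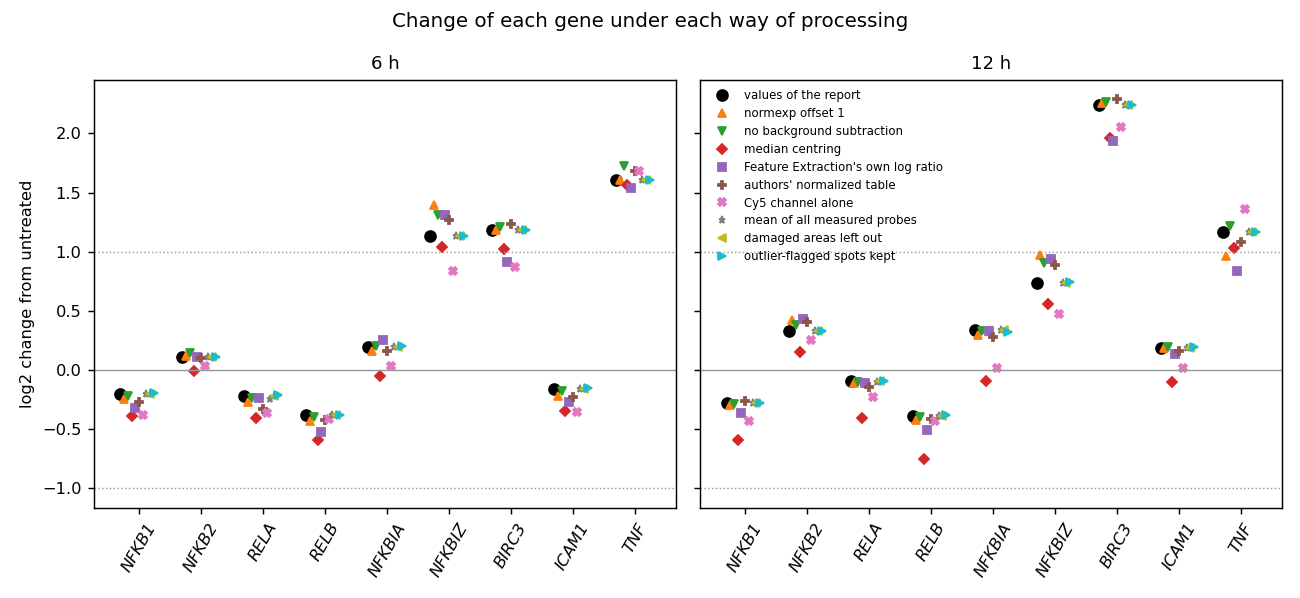
Log2 change from untreated cells (vertical axis) of the 9 measured genes (horizontal axis) at 6 h and 12 h, each symbol 1 way of processing, with dotted lines at 2-fold. BIRC3 stayed highest at 12 h and TNF at 6 h under each of them, and median centring put NFKBIA and ICAM1 below 0 at 12 h.

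The genes whose time course lay closest to that of a member were found by the root mean square difference of the 3 changes, over 19891 genes above background on all arrays, for the 3 members of that kind with the largest change at 12 h, which left out TNF. For BIRC3 these were CXCL8 at 0.26, with changes of 0.21, 1.21 and 1.92, REEP2 at 0.37 and WFDC21P at 0.40, and no gene lay within 0.2. For NFKBIZ they were CCDC28A, FBXL18 and SNX30 at 0.020 to 0.037, among 298 genes within 0.2. For RELB they were C19orf44, SNORD12B and LGR6, but 3127 genes lay within 0.2 of it, so small changes of this kind were common.

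The other genes of the pathway were read from 6 lists, some of which share genes. At 12 h, 4 of 16 measured cytokine and chemokine targets were at least 2-fold higher and 0 lower, with a list median of 0.34, where 2.33% of all genes were higher and 1.12% lower. Over the alternatives 3 to 5 were higher and 0 or 1 lower. CCL20, which attracts lymphocytes and dendritic cells, rose by 1.06, 2.13 and 2.88 at 3, 6 and 12 h. CXCL8, the neutrophil attractant interleukin 8, reached 1.92, and IL6 went from -0.36 at 3 h to 0.33 and 1.59. CSF1 was at 1.26, 1.27 and 1.30, but its second probe above background gave -0.20 at 12 h. CXCL3, another neutrophil attractant, named here after its values were seen, went the other way, with -1.23, -1.43 and -0.84. Of 21 other measured targets, 2 were at least 2-fold higher at 12 h and 0 lower, with a median of 0.18: SDC4, a cell surface proteoglycan, at 1.54 and GADD45B, a stress response gene, at 1.18. The same shares of all genes, 2.33% and 1.12%, stand beside this count. Over the alternatives 1 to 3 of these targets were higher and 0 or 1 lower, and median centring put GADD45B at 0.84. XIAP, an inhibitor of caspases named here after its values were seen, was at -0.84, -1.03 and -0.91, and between -1.25 and -0.62 at 12 h over the alternatives, with -0.34 from its second probe.

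Among the upstream genes and regulators of the remaining 4 lists, none reached 2-fold at 12 h, where 2.33% of all genes were higher and 1.12% lower. In lists of 5 to 19 measured genes a count of 0 is near these shares. At 6 h the shares of all genes were 2.81% and 0.944%, and at 3 h 1.71% and 0.375%. At 6 h IL1RAP, a co-receptor of interleukin 1, was at 1.13 (0.38 from its second probe above background), TAB3 at 1.01, CYLD at 1.01 and NFKBID at -1.06. At 3 h TAX1BP1, a partner of A20, was at 1.24 from a spot that lay in a damaged area on at least 1 array. Over the ways of processing this value lay between -0.92 and 1.24, so its direction was not fixed. With damaged areas left out, 0 of 12 measured negative regulators reached 2-fold at 3 h. IL1RAP and TAX1BP1 are named after their values were seen. The median change at 12 h was 0.24 over 10 genes of the IKK complex and its kinases, where TAB3, an adaptor of the kinase TAK1, was furthest at 0.87, with 0.29 from its second probe above background. It was -0.18 over 19 receptors and adaptors, where RIPK1, the kinase at the TNF receptor, stood at -0.84. It was 0.064 over 13 ubiquitin-editing and other negative regulators, where CYLD, a deubiquitinase that restrains the pathway, stood at 0.86. Among the 5 remaining subunit and IkB genes the median was 0.11, and NFKBID, a nuclear IkB protein, was at -0.91, -1.06 and -0.93. The 2-fold counts of these lists at 12 h were not fixed: over the alternatives 0 or 1 receptor or adaptor was higher and 0 to 2 lower, 0 or 1 gene of the IKK list and 0 or 1 of the negative regulators was higher, and 0 or 1 of the other subunits and IkB genes was lower. RIPK1 reached -1.31 and NFKBID -1.44, while TNFRSF11A, the receptor RANK, named after its values were seen, was between 0.54 and 1.94. With median centring, which put the median of all genes at 12 h at -0.16, the median of the cytokine list was 0.16 and that of the other targets -0.067. The same setting gave -0.060 for the IKK list and -0.16 for the other subunits and IkB genes. It gave -0.22 for the negative regulators and -0.41 for receptors and adaptors. Less the median of all genes in that setting, the cytokine list was at 0.32, the IKK list at 0.099 and the other targets at 0.092. On that scale the other subunits and IkB genes were at -0.0046, the negative regulators at -0.063, and receptors and adaptors at -0.25.

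**Figure D5:**
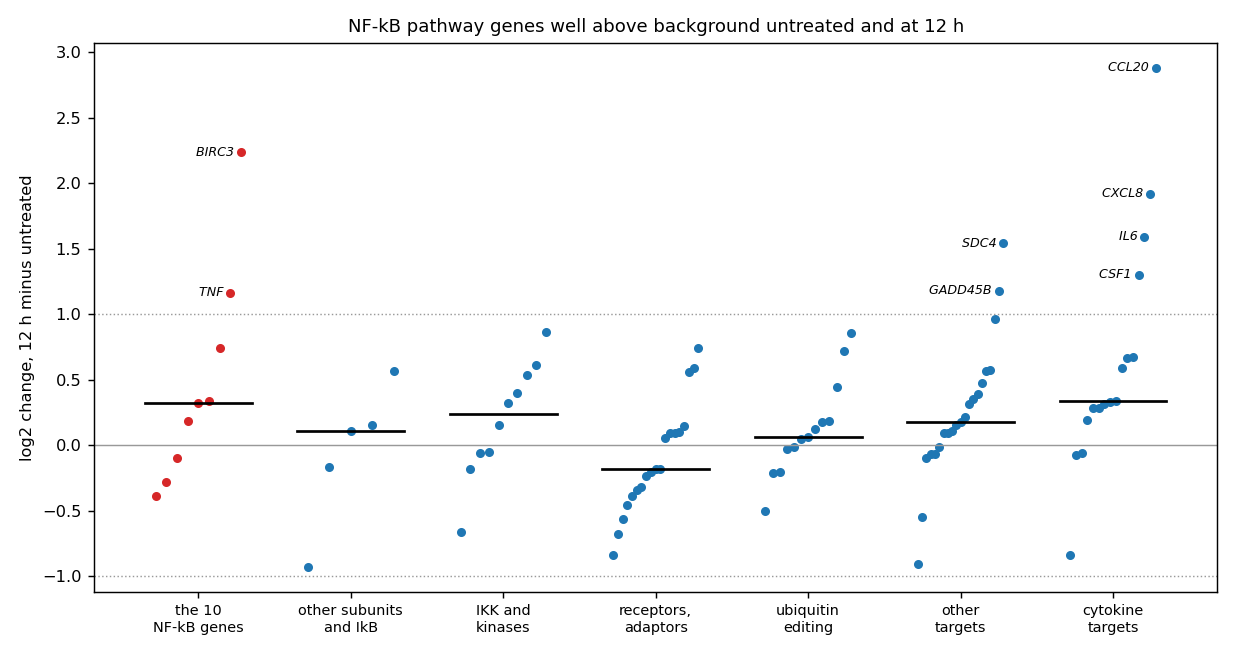
Log2 change at 12 h (vertical axis) of each NF-kB gene well above background in untreated cells and at 12 h, by list (horizontal axis), with the 10 genes described above in red, list medians as black bars and dotted lines at 2-fold. The genes past 2-fold, which are named, were BIRC3 and TNF, 2 other targets and 4 cytokines, all higher, and no upstream gene. Of all genes, 2.33% were at least 2-fold higher and 1.12% lower.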

How the data were processed

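The authors deposited, for each array, the median Cy5 and Cy3 intensity of every spot with its local background, flags, and a log10 ratio of Cy5 over Cy3 made by Feature Extraction 12.0.1.1. They also deposited a table of log2 ratios of the 4 arrays whose normalization is not given in the sources used here, and every sample column of it was mapped. Here background was removed from the intensities with normexp (offset 50), control and outlier-flagged spots were set aside, and loess within arrays and Aquantile between arrays followed (limma 3.58.1, R 4.3.3). Low intensities are pulled together by the offset, so that changes of dim genes are understated. Repeated spots were averaged, and each gene was read from its brightest probe in Cy3. The number of arrays, 1 per condition, limits the precision and no test was made. A damaged area was a window of 13 rows by 7 columns with at least 10% defective spots. The 10 genes, the lists and the naming rule (all members; in each list every gene past 2-fold at 12 h or otherwise the furthest; the 3 genes most like each of the 3 members with the largest change at 12 h among those above background on all 4 arrays) were chosen with earlier results of these data known. The normalization was tested on simulated data. There were 11 alternatives, 1 of them, keeping outlier spots, added after seeing the data.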

Additional observations from a re-analysis of the deposited data

Results flagged for a closer look

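Of the members, 2 had changes larger than the technical SD with opposite signs at different times, and the difference between times was not tested. NFKBIA was at -0.27 at 3 h, 0.20 at 6 h and 0.34 at 12 h. ICAM1 was at -0.19 at 3 h, -0.16 at 6 h and 0.18 at 12 h. In both, the sign at 12 h turned with median centring, and the change at 12 h with Cy5 alone was within the technical SD, as given above. No member had a Cy3 signal that stood apart on 1 of the 4 arrays by Dixon's criterion.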

How the results depend on the processing

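No called change of a member turned its direction. The number of members past 2-fold at 3 h went from 0 to 1, NFKBIZ, with median centring, with the scanner software's own ratio and at 1.5-fold. At 6 h it went from 3 to 1 with Cy5 alone, and at 12 h from 2 to 1 with an offset of 1 and with the software's ratio. The median over members became -0.050 at 6 h and -0.092 at 12 h with median centring, and 0.018 at 12 h with Cy5 alone. The causes were not tested. The other 54 such values kept within the technical SD or within 1.5 times the count. Of single member changes, 187 moved by less than the technical SD and 47 by more. The count of all genes past 2-fold at 12 h went from 708 to 1440 with an offset of 1, 1738 with the software's ratio, 1203 in the authors' table and 2709 at 1.5-fold; at 6 h, from 764 to 1491, 1764, 1225 and 2812. At 3 h it went from 433 to 926, 1079, 725 and 1841, to 678 without background subtraction, and to 272 without damaged areas. Median centring split the 12 h calls into 263 higher and 705 lower, against 478 and 230, and the 6 h calls into 430 and 405, against 572 and 192. With Cy5 alone the split was 238 and 364 at 3 h, against 355 and 78, 496 and 339 at 6 h, and 421 and 417 at 12 h. With the software's ratio it was 680 and 399 at 3 h and 1127 and 637 at 6 h. No paired analysis was possible because each condition has 1 array. Low Cy3 signal limits TNF, and damage limits TNFAIP3.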
